A study of Solanum tuberosum with 9 samples.

Results

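Of 34239 gene models counted in stored potato tubers (Solanum tuberosum, cultivar Keshan), 54 were higher after 40 days of storage and higher again where the storage took place under rosemary essential oil (REO). They were chosen on scaled counts (CPM, each count divided by its library's total and multiplied by 1000000). All control day 40 libraries had to lie above all control day 0 libraries, and all REO libraries above all control day 40 libraries. The REO mean had also to be at least 1.5 times the control day 40 mean and at least 2 CPM, and the identifier had to begin with Soltu.DM, as 32917 did. Expression chose these models, so their levels, ratios and order between groups are a description. Where calls of a fit to the whole table are counted, the share of all tested models stands beside them and nothing is read from the difference.

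The 3 groups held 3 libraries each: tubers fumigated with REO and sampled at day 40 (REO day 40), tubers kept without REO and sampled at day 40 (control day 40), and tubers without REO at day 0 (control day 0). No REO-treated tubers of day 0 were measured, so both comparisons of the storage period start from the same untreated tubers. All were mature tubers bought commercially and, per the labels, kept sealed under the same conditions, and the series title sets the work within the suppression of sprouting. The sources used here give neither the oil dose nor how many tubers stand behind a library. The series text calls the replicates biological, and any spread quoted is the spread between these libraries.

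A harvested tuber is a living storage stem. It passes through dormancy and then sprouts, and in that time it draws on its starch and protein, responds to water loss and wounding, and shifts its balance of abscisic acid, gibberellin and cytokinin. Rosemary oil is a mixture of volatile terpenoids such as camphor and pinene, compounds that plants oxidise, conjugate to sugars or glutathione and pump into the vacuole, often with enzymes from large families whose genes sit in tandem. The files do not pair identifiers with gene names, and none of them (0) occurs in the gene table at hand, so no function is given to any model below. For the same reason the tissue could not be checked against tuber marker genes.

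Library totals ran from 29330673 to 36901701 counts, and 23747 to 26805 models had a count. Control day 40 replicate 2 stood apart. It had the most models detected. In 18.2% of tested models it was more than 2 times the mean of the other libraries of its group, against at most 9.67% for any other library. The correlation of log2(CPM + 0.1) between libraries of its group reached down to 0.906 across genes. The lowest values were 0.965 with REO and 0.960 at day 0. Which pair of control day 40 libraries gave 0.906 is not given here. Results are therefore also given without it where it moves them.

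The 54 models together were a small part of the tuber's messenger RNA. Their summed level was 2994.2, 3585.3 and 3306.0 CPM in REO replicates 1, 2 and 3, 1474.9, 1524.5 and 1456.8 CPM in control day 40 replicates 1, 2 and 3, and 779.5, 938.1 and 750.1 CPM in control day 0 replicates 1, 2 and 3. The means were 3295.2 ± 295.7 CPM with REO, 1485.4 ± 35.03 CPM in control day 40 libraries and 822.6 ± 101 CPM at day 0 (SD, n = 3 each). The sum was thus 2.22 times as high with REO as without it at day 40, and 1.81 times as high in control tubers at day 40 as at day 0. The 5 most abundant members held 61.4% of the sum with REO. Without these 5 the sums were 1270.9 CPM with REO, 550.7 CPM in control day 40 libraries and 308.3 CPM at day 0, and the ratios were 2.31 and 1.79. In bulk tissue, more cells of a kind and more RNA per cell cannot be told apart.

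**Figure D1:**
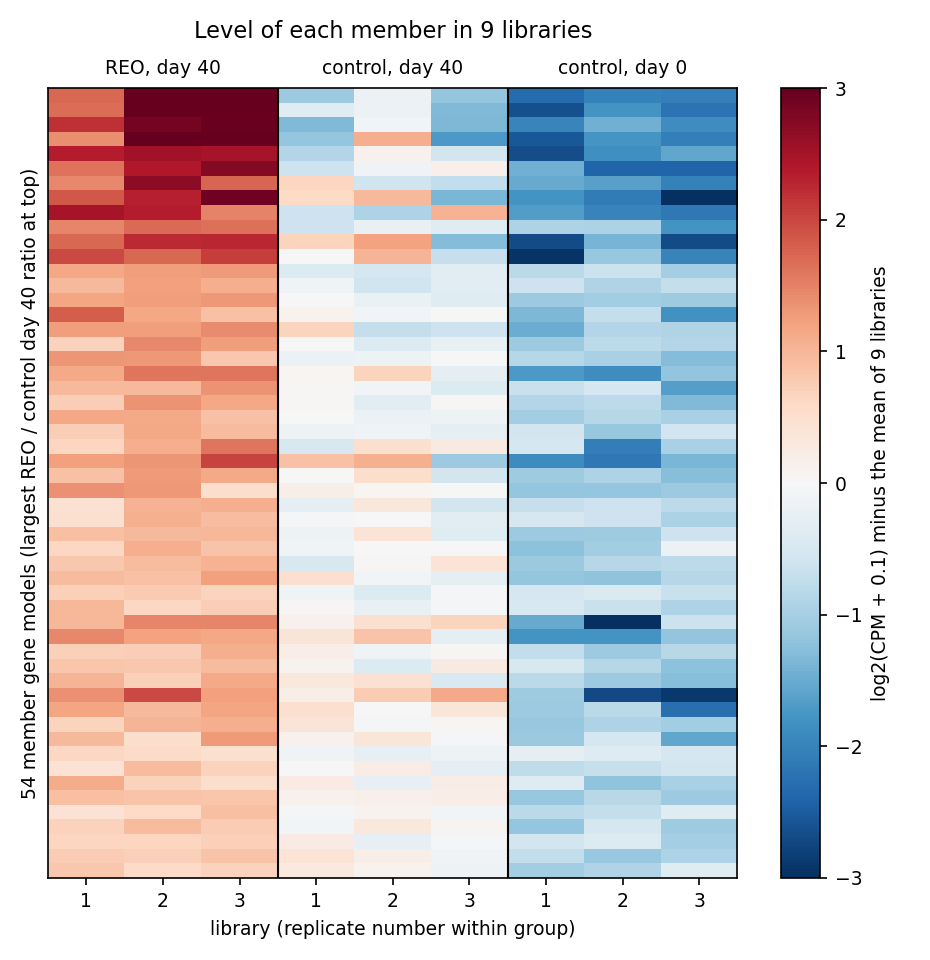
Heat map of the 54 members (rows, largest ratio of REO to control day 40 at the top) in the 9 libraries (columns, by group). Colour is log2(CPM + 0.1) minus the member's mean over the libraries, with the colour scale ending at 3 in either direction. The choice requires each member's REO libraries (left block) to lie above its control day 40 libraries (middle), and these above its day 0 libraries (right).

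The members ranged from 2.08 to 798.9 CPM with REO. Their median level was 16.9 CPM with REO, 5.997 CPM in control day 40 libraries and 3.21 CPM at day 0, where all tested models with a Soltu.DM identifier had medians of 9.73 CPM with REO, 10.4 CPM in control day 40 libraries and 9.75 CPM at day 0. With REO, 17 members stayed under 10 CPM (10 of them under 5 CPM), 26 stood at 10 to 50 CPM, 3 at 50 to 100 CPM and 8 above 100 CPM. At day 0, 14 members averaged under 1 CPM, and 2 had no count in at least 1 day 0 library. By day 40 every member had counts in every library, and 2 still averaged under 1 CPM in control tubers. On the deposited scale per length, FPKM (fragments scaled to model length and library size), the medians were 11.3 with REO, 4.80 in control tubers at day 40 and 2.18 at day 0.

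The largest ratios of REO to control day 40 belonged to a pair of consecutively numbered models on chromosome 12. Soltu.DM.12G010130 had 15.3, 49.2 and 57.9 CPM with REO, 2.09, 3.98 and 1.95 CPM in control tubers at day 40, and 0.833, 1.04 and 1.022 CPM at day 0. Soltu.DM.12G010120 had 14.6, 39.8 and 60.3 CPM with REO, 3.50, 4.005 and 1.76 CPM in control tubers at day 40, and 0.648, 1.24 and 0.894 CPM at day 0. Both were lowest in REO replicate 1 among the REO libraries, and even that library was 3.84 and 3.635 times the highest control day 40 library.

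For Soltu.DM.12G010130 the means of 40.8 ± 22.5 CPM with REO and 2.67 ± 1.13 CPM in control tubers at day 40 (SD, n = 3 each) gave a ratio of 15.3. The edgeR log2 fold change was 3.99 ± 0.48 (SE). For Soltu.DM.12G010120 the means of 38.2 ± 22.9 CPM with REO and 3.09 ± 1.18 CPM in control tubers at day 40 gave a ratio of 12.4 and a log2 fold change of 3.68 ± 0.51. The storage ratios of the pair were smaller, at 2.77 for the first and 3.325 for the second (control day 40 over day 0). Their length scales, the ratio of count to FPKM, were 1042.4 and 1052.2 bases. The sources used here do not say how reads of near-identical models were assigned, so the split of counts within this pair is uncertain.

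The largest ratios of control day 40 to control day 0 belonged to scarce transcripts. Soltu.DM.02G006110 on chromosome 2 had 2.01, 2.92 and 3.00 CPM with REO, 0.921, 1.39 and 0.160 CPM in control tubers at day 40, and 0, 0.145 and 0 CPM at day 0. Control day 40 replicate 3 was close to the day 0 libraries, whereas the REO libraries were all above 2 CPM. The ratio of 17.1 between the control means rested on 89 counts at day 40 and 5 counts at day 0. The 95% interval for the ratio of pooled counts was 6.94 to 53.1 (exact binomial, counting error only). That interval leaves out the spread between libraries, which was beyond counting noise. It also takes each count as independent, so it is too narrow if a fragment entered once per mate of a read pair. The edgeR test did not call this difference (adjusted p 0.129). The ratio of REO to control day 40 was 3.21.

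Soltu.DM.05G006560 on chromosome 5 had 1.53, 2.70 and 3.46 CPM with REO, 0.244, 0.389 and 0.480 CPM in control tubers at day 40, and 0.0926, 0 and 0 CPM at day 0. Its control ratio was 12.03, from 38 counts at day 40 and 3 counts at day 0. The interval for the ratio of pooled counts was 3.796 to 60.6, again without the spread between libraries and with each count taken as independent. This difference was not called by the edgeR test either (adjusted p 0.123). The ratio of REO to control day 40 was 6.91. It had the widest gap of all members between its lowest control day 40 and its highest day 0 library, at 2.635 times, and the lowest REO library was 3.195 times the highest control day 40 library. The first of these gaps rested on 9 counts against 3 counts, and 3 counts is the floor given with the processing below.

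The 2 most abundant members had smaller ratios. Soltu.DM.06G005440 on chromosome 6 had 741.4, 876.8 and 778.6 CPM with REO, 433.5, 570.8 and 479.9 CPM in control tubers at day 40, and 204.9, 322.4 and 218.2 CPM at day 0. In every group, REO included, replicate 2 was the highest. The means were 798.9 ± 69.9 CPM with REO, 494.7 ± 69.9 CPM in control day 40 libraries and 248.5 ± 64.3 CPM at day 0 (SD, n = 3 each), giving ratios of 1.62 for REO over control day 40 and 1.99 for control day 40 over day 0. Per length it was also the highest member with REO, at 248.6 ± 23.7 FPKM, against 154.4 ± 21.2 FPKM in control tubers at day 40 and 74.8 ± 19.1 FPKM at day 0.

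Soltu.DM.03G002800 on chromosome 3 had 330.7, 561.8 and 488.8 CPM with REO, 207.3, 155.2 and 175.1 CPM in control tubers at day 40, and 97.3, 119.1 and 111.6 CPM at day 0. REO replicate 1 was again the lowest of its group. The ratio was 2.57 for REO over control day 40, with a log2 fold change of 1.41 ± 0.22 (SE), and 1.64 for control day 40 over day 0. Per length it stood at 183.4 ± 47.3 FPKM with REO, 72.0 ± 10.1 FPKM in control tubers at day 40 and 43.4 ± 4.17 FPKM at day 0 (SD, n = 3 each).

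**Figure D2:**
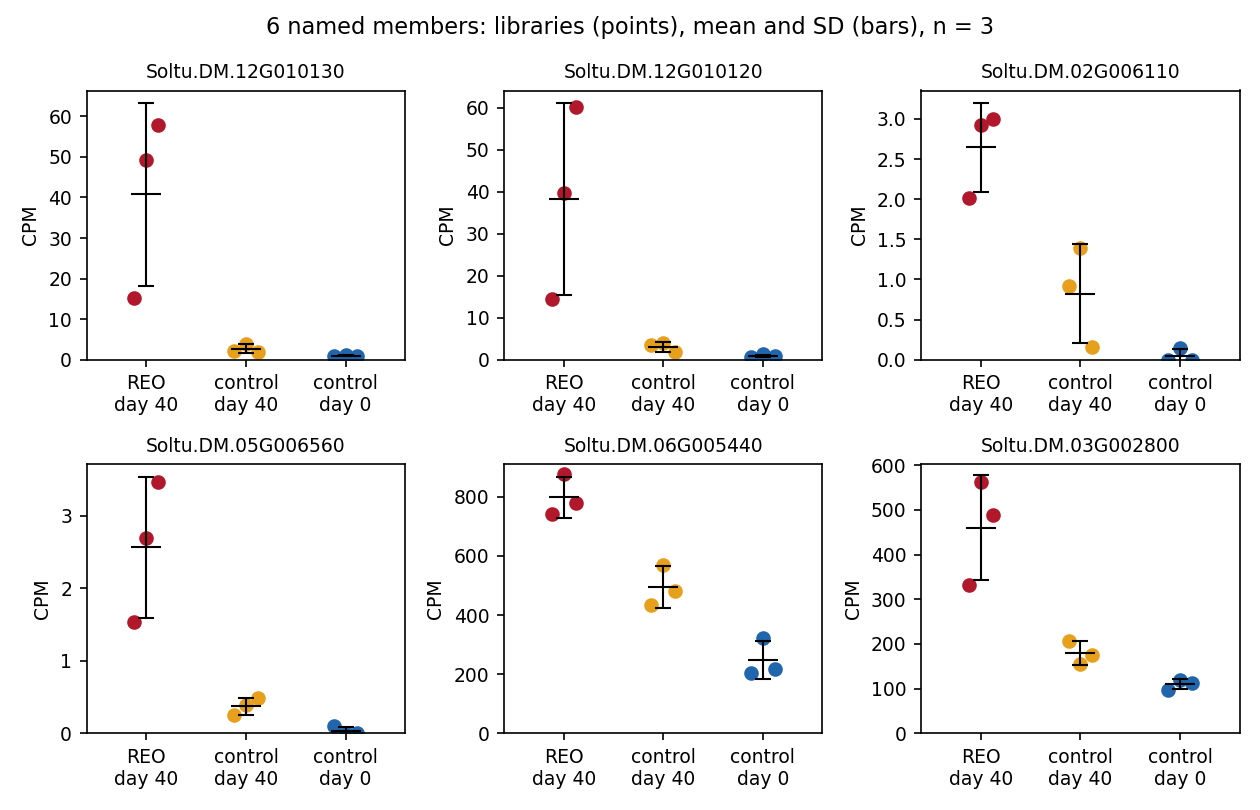
Level in CPM of the 6 named members, 1 panel each, in REO day 40, control day 40 and control day 0 libraries (points), with the mean and SD (bars, n = 3). The y axes start at 0 and differ between panels; the chromosome 12 pair shows 1 low REO library at 14.6 to 15.3 CPM, and Soltu.DM.02G006110 shows 1 low control day 40 library at 0.160 CPM.

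Across the 54 members, the median ratios of the REO and the storage steps were close on CPM. The choice set a minimum of 1.5 for the REO ratio and no minimum for the storage ratio, so this is a description. The median edgeR log2 fold changes, scaled by TMM, were 1.12 for REO over control day 40 and 0.92 for control day 40 over day 0. The ratio of REO to control day 40 ran from 1.52 to 15.3 with a median of 2.07, and the ratio of control day 40 to day 0 ran from 1.18 to 17.1 with a median of 2.08. The control day 40 libraries enter both ratios, once below and once above the line. The ratio of REO to control day 40 was at least 2 in 29 members, at least 4 in 10 and at least 8 in 4, and the ratio of control day 40 to day 0 was at least 2 in 30, at least 4 in 9 and at least 8 in 2. In 18 members both ratios were at least 2, and in 13 both were under 2. In 11 only the REO ratio reached 2, and in 12 only the storage ratio did.

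From day 0 to REO day 40 the members stood 1.94 to 83.1 times higher, with a median of 4.28. In CPM rather than ratios, the difference between REO and control day 40 made up a median of 70.6% of the whole difference between REO and day 0, with a range of 47.4% to 95.7%. Where successive ratios are equal, the later step is always the larger in CPM. The choice also set a minimum for the REO ratio alone, so these shares are fixed in part by the scale and the choice.

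**Figure D3:**
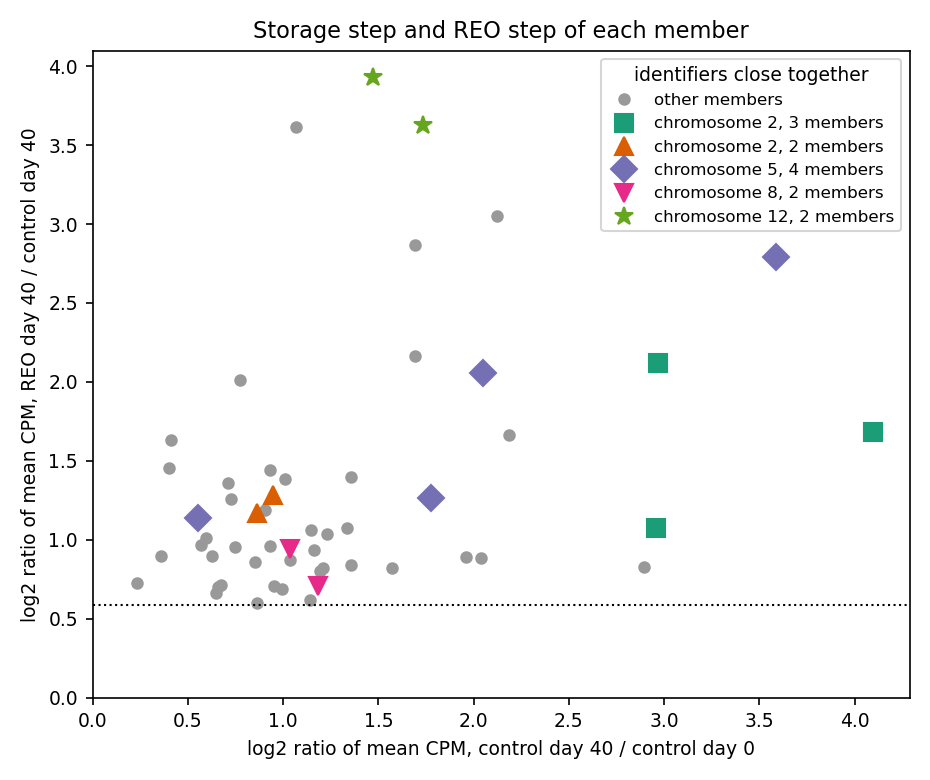
Each member's log2 ratio of mean CPM for control day 40 over day 0 (x axis) and for REO over control day 40 (y axis); coloured symbols mark the 13 members whose identifiers lie close together, and the dotted line is the minimum ratio of 1.5 that the choice required. The chromosome 12 pair is at the top (ratios of 15.3 and 12.4) and the chromosome 2 trio at the right (7.76 to 17.1).

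The groups were often set apart by a narrow margin. The lowest REO library was a median of 1.45 times the highest control day 40 library, under 1.2 times in 7 members and at least 2 times in 9. The lowest control day 40 library was a median of 1.32 times the highest day 0 library, under 1.2 times in 17 members and at least 2 times in 3. In 9 members both margins were at least 1.5. At the required ratio, the 3 members just inside had 1.52, 1.54 and 1.59, and the 3 models just outside, which met all else, had 1.499, 1.491 and 1.484. At the required level, the REO means just inside were 2.08, 2.36 and 2.46 CPM and those just outside were 1.77, 1.69 and 1.45 CPM. Both orders were met by 123 models, of which 55 missed the ratio and a further 14 the level.

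Where libraries of a group differed, the members did not all follow 1 library. Among REO libraries, replicate 3 was the highest in 25 members, or 46.3%, and in 45.2% of all tested models. Replicate 1 was the lowest in 31 members, or 57.4%, and in 46.9% of all tested models. Control day 40 replicate 2 was the highest of its group in 23 members, or 42.6%, and in 50.6% of all tested models. Control day 40 replicate 3 was the lowest of its group in 26 members, or 48.1%, and in 34.7% of all tested models. The median coefficient of variation between libraries was 15.2% with REO, 17.5% in control tubers at day 40 and 20.0% at day 0 for the members, and 15.3% with REO, 23.2% in control tubers at day 40 and 22.6% at day 0 for all tested models. The order required of the members bounds the control day 40 group from both sides, which favours little spread there. How far this accounts for the difference from all tested models was not tested.

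Leaving out control day 40 replicate 2 from the choice gave 120 models, of which 52 were members. Each other library was also left out once and the choice repeated on the remaining 8. The numbers were 64, 61 and 60 with REO replicates 1, 2 and 3 absent, 78 and 97 with control day 40 replicates 1 and 3 absent, and 64, 87 and 74 with day 0 replicates 1, 2 and 3 absent. Of the 54 members, 45 were chosen in all 9 of these.

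A model fitted to the whole table (quasi-likelihood test in edgeR, with p adjusted by Benjamini-Hochberg and called under 0.05) tested 22638 models, all 54 members among them. For REO against control day 40, 16 members (29.6%) were called higher, where 0.424% of all tested models were. For control day 40 against day 0, 3 members (5.56%) were called higher, where 0.274% of all tested models were. For REO day 40 against day 0, 51 members (94.4%) were called higher, where 1.39% were. Since these contrasts chose the members, nothing is read from the shares. There was 1 member called in both of the single steps, 33 were called in the whole difference alone, and 3 were called in none. The matching overlap over all tested models is not given here, so nothing is read from these counts. Every tested model had a place in the order of groups: 5.76% had all REO libraries above all control day 40 libraries, 14.2% had all control day 40 libraries above all day 0 libraries, and 0.548% had both.

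The calls depended on the tool and on single libraries. DESeq2 called 38 members higher for REO against control day 40 (1.67% of all models it tested), 28 for control day 40 against day 0 (3.07%) and 54 for REO day 40 against day 0 (3.95%). For REO against control day 40, edgeR called 8, 3 and 8 members with REO replicates 1, 2 and 3 absent in turn, 9, 15 and 4 with control day 40 replicates 1, 2 and 3 absent, and 8, 10 and 10 with day 0 replicates 1, 2 and 3 absent. Over all tested models these fits called 0.222%, 0.0987% and 0.164%, then 0.271%, 0.698% and 0.158%, then 0.197%, 0.298% and 0.299% higher, so the number of calls moved for all models and not for the members alone. For control day 40 against day 0 the same fits called 1, 0 and 2, then 0, 12 and 0, then 0, 1 and 0 members, and at most 1.73% of all tested models (control day 40 replicate 2 absent). At an unadjusted p under 0.05 the storage comparison had 46 members with all libraries (9.04% of all tested models were higher at that p) and 32 to 43 with a library absent (6.08% to 11% of all tested models). For REO day 40 against day 0 the call was made for 54 members with control day 40 replicate 2 absent, where 3.06% of all tested models were called higher, and for 28 with REO replicate 2 absent, where 0.313% were.

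The numbering of the members, which played no part in the choice, was uneven. The identifier's number places 14 of the 54 members (25.9%) on chromosome 2, where 9.79% of the tested models with a chromosome number lie. Chromosomes 5 and 12 held 7 members each (12.96%), against 6.58% and 6.79% of tested models, and chromosome 1 held 1 member (1.85%) against 12.8%. Models that met the storage order with at least 2 CPM in control tubers at day 40 and were not members had 8.83% on chromosome 2, and models raised by REO without the storage step had 8.88%. These shares are descriptions, since neighbouring models are not independent.

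**Figure D4:**
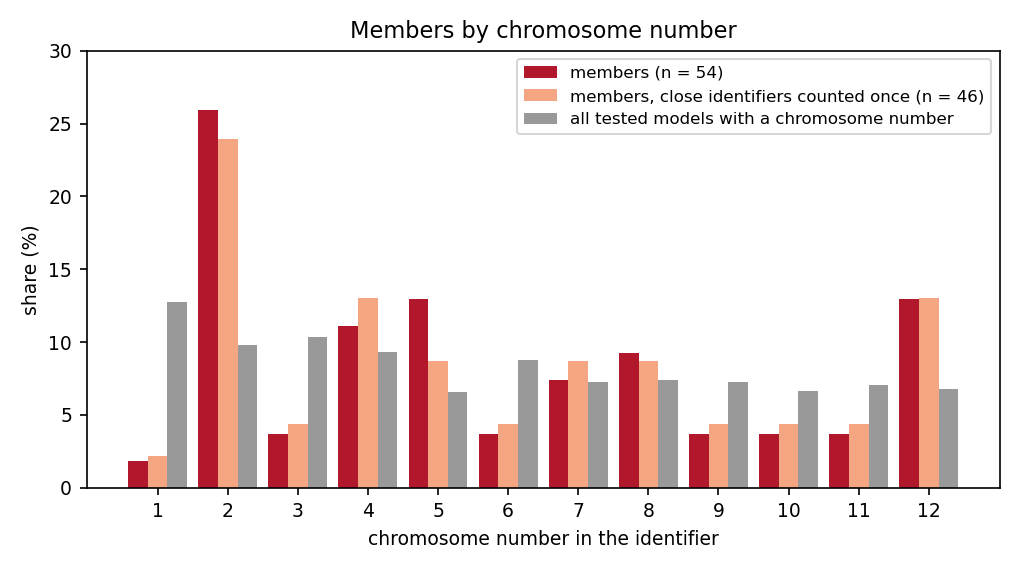
Share of members on each chromosome number (left bars), of members with close identifiers counted once (middle bars) and of all tested models with a chromosome number (right bars). Chromosome 2 held 25.9% of members and 23.9% when close identifiers were counted once, against 9.79% of tested models.

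Several members stood side by side in the numbering. Of the 82 tested models listed next to a member on the same chromosome, 7 were members themselves (8.54%), whereas members were 0.252% of all tested models with a chromosome number. These 7 formed 3 runs, on chromosomes 2, 5 and 12, and 13 members formed 5 groups when up to 10 listed positions between members were allowed. With each such group counted once, 46 remained, of which 11 (23.9%) were on chromosome 2. If near-identical copies shared reads, the members of a run are not separate observations, and whether they did was not tested.

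The chromosome 2 run was made of 3 consecutive models, ending with Soltu.DM.02G006110. The middle one was the most abundant, with 7.77, 10.8 and 16.3 CPM in REO libraries, 3.17, 4.12 and 0.736 CPM in control tubers at day 40, and 0.525, 0.405 and 0.0958 CPM at day 0. The first had 1.84, 1.97 and 3.28 CPM with REO, 1.44, 1.64 and 0.288 CPM in control tubers at day 40, and 0.123, 0.0867 and 0.224 CPM at day 0. In all 3 the low control day 40 library was replicate 3 and the highest REO library was replicate 3. Their ratios of control day 40 to day 0 were 7.76 to 17.1, and those of REO to control day 40 were 2.11 to 4.34.

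The chromosome 5 group held 4 members within 11 consecutive models, Soltu.DM.05G006560 among them. The first of the 4 was the most abundant, with 199.3, 181.4 and 99.97 CPM in REO libraries, 23.1, 18.8 and 73.9 CPM in control tubers at day 40, and 11.1, 8.82 and 8.02 CPM at day 0. Its replicate 3 was the lowest with REO and the highest in control tubers at day 40, and these 2 libraries came within 1.35 times of each other. The last of the 4 had 55.3, 77.1 and 77.0 CPM with REO, 26.2, 39.9 and 21.0 CPM in control tubers at day 40, and 7.53, 6.85 and 11.02 CPM at day 0. Between the members lay 7 other models, of which 6 were tested. Their log2 fold change for REO over control day 40 was above 0 in 5 of 6, with a range of -0.01 to 2.78, and for control day 40 over day 0 above 0 in 5 of 6, with a range of -0.26 to 1.05.

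The other close groups were a pair within 4 models on chromosome 2 and a pair within 11 models on chromosome 8. The chromosome 2 pair had nearly the same ratios at very unlike levels: 14.4 CPM and 223.3 CPM with REO, with ratios of 2.44 and 2.25 over control day 40 and of 1.93 and 1.82 for control day 40 over day 0. The chromosome 8 pair stood at 2.96 and 39.4 CPM with REO, with ratios of 1.92 and 1.63 over control day 40. The 75 tested neighbours that were not members had a median log2 fold change of 0.04 for REO over control day 40, where all tested models had -0.05, and of 0.03 for control day 40 over day 0, where all tested models had 0.04. The first was above 0 in 41 of them (54.7%), against 43.2% of all tested models, and the second in 42 (56%), against 53.2%.

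Length was not part of the choice either. The members' median length scale was 1433.5 bases, with quartiles of 1114.6 and 2015.0, against 1688.7 bases for all tested models with a Soltu.DM identifier. The 2594 models that met the storage order with at least 2 CPM in control tubers at day 40 and were not members had a median of 2092.8 bases, and the 473 models raised by REO without the storage step had 1459.6 bases. Members with a mean of at least 10 CPM had a median of 1958.6 bases, so the value depends on the level of the members taken.

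Members were 1.65% of the 3278 models whose control day 40 libraries all lay above day 0, and 10.2% of the 527 that met the REO conditions alone. The median log2 fold change for REO over control day 40 was 1.12 in members and 1.15 in the other models raised by REO. For control day 40 over day 0 these medians were 0.92 and -0.35. Among the 2591 tested of the 2594 models that met the storage order at 2 CPM or more, without being members, the median was 0.45 for control day 40 over day 0 and -0.13 for REO over control day 40. The conditions that define each set fix these signs in part, so the values are given without a test.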

How the data were processed

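The authors deposited whole-number counts and a second table over the same 34239 models, read here as FPKM from its values: for 89.6% of 15551 models with at least 50 counts in every library, count over value was a model constant times a library constant within 2%. HISAT2 2.1.0 and DESeq2 appear in the tool list per the submitters' processing notes. The sources used here name no counting tool, build, annotation or strand setting, so reads of overlapping or antisense models may not have been told apart. Counts of 2 (4901 cells) outnumber counts of 1 (1998 cells), so a fragment may have entered once per mate.

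CPM used the column totals. A floor of 3 counts was 0.0813 to 0.102 CPM, counting error only. The edgeR 4.0.16 fit (R 4.3.3, filterByExpr, TMM, all 9 libraries, 1 coefficient per group) gave the log2 fold changes. SEs come from the F statistic. Alternatives used DESeq2 1.42.0 and limma 3.58.1. Replicates of a group differed beyond counting noise (chi-square per degree of freedom at least 34.5). Members, rules and alternatives were chosen with earlier results of these data known. Named models are the leading 2 by REO ratio, by storage ratio and by REO level, since at most 2 unnamed identifiers per comparison are printed. Gene lists and cell type markers could not be used because the models have no names.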

Additional observations from a re-analysis of the deposited data

How the results depend on the processing

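The number of members was 57 or 58 with RLE or TMM scaling, 51 on FPKM, 29 with a ratio of at least 2, 107 with no ratio minimum, 37 with at least 10 CPM, 68 with no level minimum, and 60 to 120 when a library was left out. Of the 54, 46 were kept under TMM and 49 on FPKM.

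Counts of members called higher are given with the share of all tested models called higher by the same fit in brackets. For REO against control day 40 the 16 (0.424%) became 5 with a replicate block (0.19%). They became 7 in a fit of the 6 libraries compared (0.177%) and 38 with DESeq2 (1.67%). When a library was left out, 3 to 15 were called (0.0987% to 0.698%). For control day 40 against day 0 the 3 (0.274%) became 20 at an adjusted p under 0.1 (1.29%) and 0 with the replicate block (0.00442%). The fit of the 6 libraries tested 51 members and called 0 (0%). DESeq2 called 28 (3.07%) and limma-voom 2 (0.208%), and 0 to 12 were called when a library was left out (0% to 1.73%). At an unadjusted p under 0.05 the replicate block had 43 (7.48%) and the 6 libraries 34 (6.13%). For REO against day 0 the 51 (1.39%) became 44 with the replicate block (0.733%) and 28 to 54 when a library was left out (0.313% to 3.06%). The cause was not tested. Same-numbered libraries correlated at -0.546 to 0.292 after group means were removed, and differently numbered ones at -0.402 to 0.601. Of 9 libraries, 4 correlated best with their own number. With 3 libraries a group these values cannot decide whether replicate numbers pair the libraries. None of these calls was for a lower level.

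The median log2 fold change of members for REO over control day 40, 1.12, was 0.87 on log2(FPKM + 1) and 1.05 to 1.202 when a library was left out. For control day 40 over day 0, 0.92, it was 0.73 on log2(FPKM + 1) and 0.88 to 1.06. The offset of 1 shrinks ratios of low models by construction. Using column totals gave the members 1.05 for REO over control day 40, where all models had -0.11, and 1.05 for control day 40 over day 0, where all models had 0.15. The median length scale of 1433.5 bases became 1958.6 bases among members of at least 10 CPM.

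With 3 libraries a group, models that start from 5 or fewer counts at day 0 have wide intervals. Calls for control day 40 against day 0 moved with control day 40 replicate 2 and with other libraries, and what limits them was not tested.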

Other observations

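The opposite pattern also occurred. A total of 31 models were lower in control tubers at day 40 than at day 0 and lower again with REO, when the same conditions were turned round (control day 40 at least 1.5 times REO, day 0 at least 2 CPM). Their medians were 5.18 CPM with REO, 8.68 CPM in control day 40 libraries and 15.1 CPM at day 0, and their sums were 771.9 CPM with REO, 1370.0 CPM in control day 40 libraries and 3098.5 CPM at day 0. For REO against control day 40 the edgeR test called 0 of the 31 lower (0.0353% of all tested models were). At its unadjusted p under 0.05, 26 were lower, but the share of all tested models is not given here, so nothing is read from it. Limma-voom called 0 of the 31 lower, and of 22638 models it called 121, with 111 of these higher. DESeq2 called 7 of the 31 lower, and of 23284 models it called 516, with 388 of these higher. The edgeR test called 5 of the 31 lower for control day 40 against day 0 (0.570% of all tested models were) and 28 for REO against day 0 (1.22%). Of the 54 members that were higher, 13 lay within 10 listed positions of another member, and of these 31 none (0) did. Both sets were chosen from these values, so this is a description.

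Before the ratio and level conditions, both orders upward were met by 123 models and both orders downward by 83. Upward, 3278 models met the storage order and 1357 the REO order, and downward 1598 and 2232. These orders rest on column totals. On that scale the median model moved by 0.15 (log2) from control day 0 to control day 40. From control day 40 to REO it moved by -0.11. With TMM these medians were 0.04 and -0.05. The TMM fit called 191 models for control day 40 against day 0, 62 of them higher. For REO against control day 40 it called 104, 96 of them higher. No direction of either step is read from the order counts. None (0) of the 1322 models that the submitters added met the remaining conditions.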
